A study of Mus musculus with 13 samples.

Results

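Complement and coagulation factors were examined in the livers of STZ-treated and control mice. The set holds 41 genes, 18 of complement and 23 of coagulation, listed by symbol with no threshold on measured values, though with earlier results of these data known. Of these, 37 had a probe set that the platform annotation gives to 1 gene symbol alone, 16 of complement and 21 of coagulation, out of 19938 genes in all. A gene with several such probe sets was represented by the one of highest mean over the 13 arrays. The probe set of Klkb1, the plasma prekallikrein gene, is annotated to Cyp4v3 as well and was left out, and C3, Cfd and Cpb2 were not analysed here.

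The STZ group held 6 wild-type C57BL/6N mice, all male, injected intraperitoneally with 65 mg/kg streptozotocin on each of 5 consecutive days, at an age of 10 to 16 weeks. The 7 controls were male wild-type mice of the same strain, mock-injected with citrate buffer. All 13 livers were taken 9 to 11 weeks after treatment, at 5 to 6 months of age, and total RNA of each was hybridised to 1 Affymetrix array. Streptozotocin is a glucose analogue that is toxic to pancreatic beta cells, which make insulin, and treated mice are a common model of insulin-deficient diabetes. The compound is given to the whole animal, so the liver is exposed to it as well as to the loss of insulin. Values are log2 intensities made by the authors with robust multi-array average (RMA), and a difference is STZ minus control on that scale. A level is compared between groups for 1 gene at a time and not between genes, since probe sets differ in brightness for the same amount of RNA.

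The liver secretes most complement and clotting proteins of the blood plasma. Complement marks and lyses microbes: the classical and lectin pathways (C1, mannose-binding lectins, MASP proteases, C4, C2) and the alternative pathway (factors B, D and properdin) converge on C3, and cleavage of C5 then starts assembly of C5b, C6, C7, C8 and C9 into the membrane attack complex. Coagulation is a cascade of plasma proteases that ends with thrombin turning fibrinogen into fibrin. The protein C system, antithrombin and tissue factor pathway inhibitor restrain it, and plasmin dissolves the clot. Many genes of both systems depend on hepatocyte transcription factors, and some rise in the acute phase response.

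Of the 37 genes, 11 passed in limma at an adjusted p under 0.05, 3 higher and 8 lower in STZ livers. Among all 19938 genes 9.12% passed, 5.09% higher and 4.04% lower. Most members are bright: all 16 complement and 20 of the 21 coagulation genes lay above the median gene in brightness. In a fit of the 9969 genes above that median alone, 18.6% passed, 10.1% higher and 8.56% lower. Complement then had 1 gene higher and 6 lower, and coagulation 2 higher and 2 lower. At an unadjusted p under 0.05 the count was 14 of the 37 genes, against 20.8% of all genes. An exact rank-sum test over the mice, adjusted over all genes, called 8 of the 37, against 5.46% of all genes. Even full separation of the groups, as in Mbl2, gave an adjusted p of 0.0302 in the rank-sum test. A gene that it did not call may therefore still differ. In complement, 1 of 16 genes was higher and 6 were lower, with a median difference of -0.12. In coagulation, 2 of 21 genes were higher and 2 lower, with a median difference of 0.07. The median over all genes was -0.01. Of the 6 complement genes that fell, 5 encode subunits of the membrane attack complex. In coagulation F11 and Kng2 of the contact system passed, as did F3, the initiator, and Pros1, an anticoagulant. No p was computed for complement against coagulation, because the members of a list are not replicates, so the counts of the 2 systems stand side by side as a description.

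**Figure D1:**
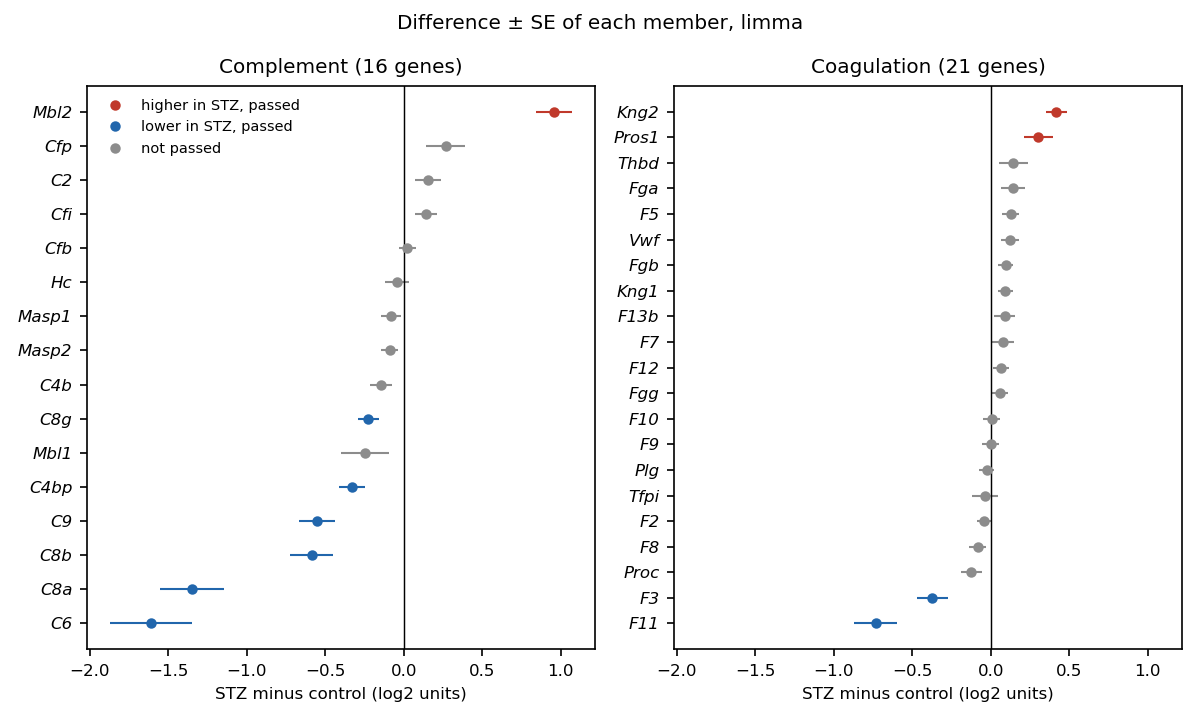
Difference in liver level (STZ minus control, log2 units, horizontal axis) of each of the 16 complement genes on the left and the 21 coagulation genes on the right, with the standard error of the limma fit as bars. Colours mark genes that passed at an adjusted p under 0.05. Complement reaches from -1.61 (C6) to 0.96 (Mbl2), and coagulation from -0.73 (F11) to 0.42 (Kng2). The 9 complement genes that did not pass lie between -0.25 and 0.27, and the 17 of coagulation between -0.12 and 0.14.

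Windows of 300 bases around the start site, 250 before and 50 after it, are printed for the genes that moved furthest in each direction, so that the sequence can be read beside the values. They come from RefSeq on GRCm38.p6, which holds a window for 31 of the 41 genes, and are written 5′ to 3′ on the strand of the gene. C6 is at chr15:4726960-4727259 (plus strand), C8a at chr4:104876349-104876648 (minus), C8b at chr4:104766067-104766366 (plus), C9 at chr15:6445096-6445395 (plus) and F11 at chr8:45261982-45262281 (minus). Of the genes that rose, Mbl2 is at chr19:30232678-30232977 (plus) and Kng2 at chr16:23029052-23029351 (minus). Capitals mark matches, on either strand, to 6 short patterns of liver transcription factors: TTCNNNGAA (STAT type), GTTAAT (part of an HNF1 site), ATTGAT (HNF6 type), TGTTTAC (FOXA type), TTGCNNAA (C/EBP type) and AGGTCA (nuclear receptor type). In the 7 windows no matches to different patterns overlapped.
C6: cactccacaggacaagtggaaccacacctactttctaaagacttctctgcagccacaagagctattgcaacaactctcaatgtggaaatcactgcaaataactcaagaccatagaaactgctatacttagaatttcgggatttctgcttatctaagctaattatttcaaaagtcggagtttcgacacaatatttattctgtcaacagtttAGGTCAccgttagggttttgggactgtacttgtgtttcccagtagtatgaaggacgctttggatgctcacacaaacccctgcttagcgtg
C8a: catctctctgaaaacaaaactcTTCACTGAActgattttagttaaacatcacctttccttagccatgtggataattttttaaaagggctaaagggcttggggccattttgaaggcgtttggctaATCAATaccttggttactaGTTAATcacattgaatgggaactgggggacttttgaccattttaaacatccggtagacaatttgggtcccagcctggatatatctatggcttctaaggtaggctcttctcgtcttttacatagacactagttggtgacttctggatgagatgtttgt
C8b: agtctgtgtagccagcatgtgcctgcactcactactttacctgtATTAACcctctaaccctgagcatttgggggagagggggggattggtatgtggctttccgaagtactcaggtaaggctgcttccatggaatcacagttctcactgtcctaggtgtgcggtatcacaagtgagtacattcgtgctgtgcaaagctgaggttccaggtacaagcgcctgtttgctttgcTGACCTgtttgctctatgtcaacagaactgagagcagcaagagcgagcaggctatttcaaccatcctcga
C9: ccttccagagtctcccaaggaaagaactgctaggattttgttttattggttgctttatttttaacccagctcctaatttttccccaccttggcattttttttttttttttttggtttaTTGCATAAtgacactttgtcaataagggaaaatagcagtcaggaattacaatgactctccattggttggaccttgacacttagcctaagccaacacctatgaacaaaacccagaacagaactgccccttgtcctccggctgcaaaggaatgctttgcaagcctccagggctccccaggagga
F11: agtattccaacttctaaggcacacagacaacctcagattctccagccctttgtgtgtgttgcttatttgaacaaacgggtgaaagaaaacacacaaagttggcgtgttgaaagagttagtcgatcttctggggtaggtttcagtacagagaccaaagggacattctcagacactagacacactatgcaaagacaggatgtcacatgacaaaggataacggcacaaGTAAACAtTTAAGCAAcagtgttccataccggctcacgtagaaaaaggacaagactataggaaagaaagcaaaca
Mbl2: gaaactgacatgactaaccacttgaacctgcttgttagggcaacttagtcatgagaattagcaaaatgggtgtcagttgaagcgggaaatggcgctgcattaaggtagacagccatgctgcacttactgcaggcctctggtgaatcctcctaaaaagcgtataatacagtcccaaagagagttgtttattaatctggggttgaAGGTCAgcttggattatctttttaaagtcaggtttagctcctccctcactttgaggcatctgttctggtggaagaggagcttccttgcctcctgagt
Kng2: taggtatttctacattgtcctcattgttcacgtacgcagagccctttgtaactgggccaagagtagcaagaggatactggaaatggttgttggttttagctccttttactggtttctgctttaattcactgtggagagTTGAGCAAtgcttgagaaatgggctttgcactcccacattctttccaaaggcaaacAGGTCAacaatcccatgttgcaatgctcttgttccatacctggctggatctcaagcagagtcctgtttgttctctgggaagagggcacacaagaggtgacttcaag

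AGGTCA was found in C6 at -40 to -35 from the start site, in Mbl2 at -47 to -42 and in Kng2 at -56 to -51, and on the opposite strand in C8b at -20 to -15. It therefore stood in windows of genes that fell and of genes that rose. C8a held TTCNNNGAA at -228 to -220, ATTGAT on the opposite strand at -126 to -121 and GTTAAT at -107 to -102. C8b also held GTTAAT on the opposite strand at -206 to -201, C9 held TTGCNNAA at -132 to -125, and Kng2 on the opposite strand at -112 to -105. F11 held TGTTTAC and TTGCNNAA on the opposite strand within 25 bases of the start.

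Of the 31 members with a window, 13 (41.9%) held AGGTCA, against 16.3% of all 32851 windows in the table. GTTAAT was in 9 (29%) of the 31 and 7.1% of all, and TTGCNNAA in 9 (29%) and 10.8%. TTCNNNGAA was in 6 (19.4%) and 8.3%, ATTGAT in 4 (12.9%) and 7.54%, and TGTTTAC in 2 (6.45%) and 3.65%. Of the 8 genes that fell, 3 held the HNF1 pattern, 2 the nuclear receptor pattern, 2 the C/EBP pattern and 1 each the STAT, HNF6 and FOXA patterns. Of the 3 that rose, 2 held the nuclear receptor pattern, 1 the C/EBP pattern and 1 the STAT pattern, and 0 held the other 3. With so few genes these counts tell nothing of a difference between them. A member with 2 windows was counted once if either held the pattern. A match is a description of the letters and not evidence that a factor binds there.

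Of the 6 terminal-pathway genes in the set, 5 fell and Hc, the gene of C5, did not pass. C6, which binds C5b and starts the attack complex, had the largest difference. It ranged from 8.54 to 10.76 in STZ livers, with a median of 9.01, and from 10.67 to 11.14 in control livers, with a median of 10.84. In 5 of the 6 STZ livers C6 lay below all controls, and STZ replicate 5 lay within their range. The means were 9.24 ± 0.82 (SD, n = 6) in STZ and 10.85 ± 0.16 (SD, n = 7) in control livers. The difference was -1.61 ± 0.26 log2 units (SE of the fit), which left C6 at 32.8% of the control level, with an adjusted p of 0.000855 in limma. In the exact rank-sum test, which does not weigh the size of a difference, the adjusted p of C6 was 0.0629.

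C8 is a complex of alpha, beta and gamma chains encoded by C8a, C8b and C8g. C8a ranged from 9.27 to 10.87 in STZ livers (median 9.58) and from 11.01 to 11.37 in control livers (median 11.16). It was the complement gene whose groups did not overlap in the downward direction, which held for 1.56% of all genes. Its difference was -1.35 ± 0.20, or 39.3% of the control level, with an adjusted p of 0.000453 in limma. C8b, its neighbour on chromosome 4 with no protein-coding gene between them in the RefSeq table, ranged from 11.14 to 12.21 in STZ livers (median 11.52) and from 11.92 to 12.48 in control livers (median 12.18). The C8b difference was -0.59 ± 0.14 (adjusted p = 0.0126 in limma), with 5 of 6 STZ livers below all controls. In the exact rank-sum test its adjusted p was 0.122.

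C8g encodes a lipocalin-like chain that is not needed for the pore itself. It ranged from 12.39 to 12.79 in STZ livers (median 12.59), against 12.79 to 12.88 in control livers (median 12.82). In 4 of 6 STZ livers it lay clearly below all controls, and STZ replicates 3 and 5, at 12.791 and 12.785, were level with the lowest control, at 12.787. Its difference of -0.23 ± 0.07 passed with an adjusted p of 0.0393 in limma. Among the 13 fits with 1 array removed, the call held in those without STZ replicate 3 or STZ replicate 5 and was lost in the other 11.

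C9, the subunit that polymerises into the pore, ranged from 10.65 to 11.56 in STZ livers (median 11.04), against 11.54 to 11.91 in control livers (median 11.58). Its difference was -0.55 ± 0.11, with an adjusted p of 0.00507 in limma and 5 of 6 STZ livers below all controls. Hc differed by -0.05 ± 0.08 with an adjusted p of 0.825 in limma. It lay between 11.39 and 11.88 in STZ livers (median 11.64) and between 11.52 and 11.92 in control livers (median 11.71), so that the groups overlapped almost fully. C7, which was not in the set but completes the attack complex, was -0.34 ± 0.10 with an adjusted p of 0.0557, just outside the threshold. C7 was dim, with a control median of 6.18 where the mean of the median gene was 6.65, and arrays compress the differences of dim genes.

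**Figure D2:**
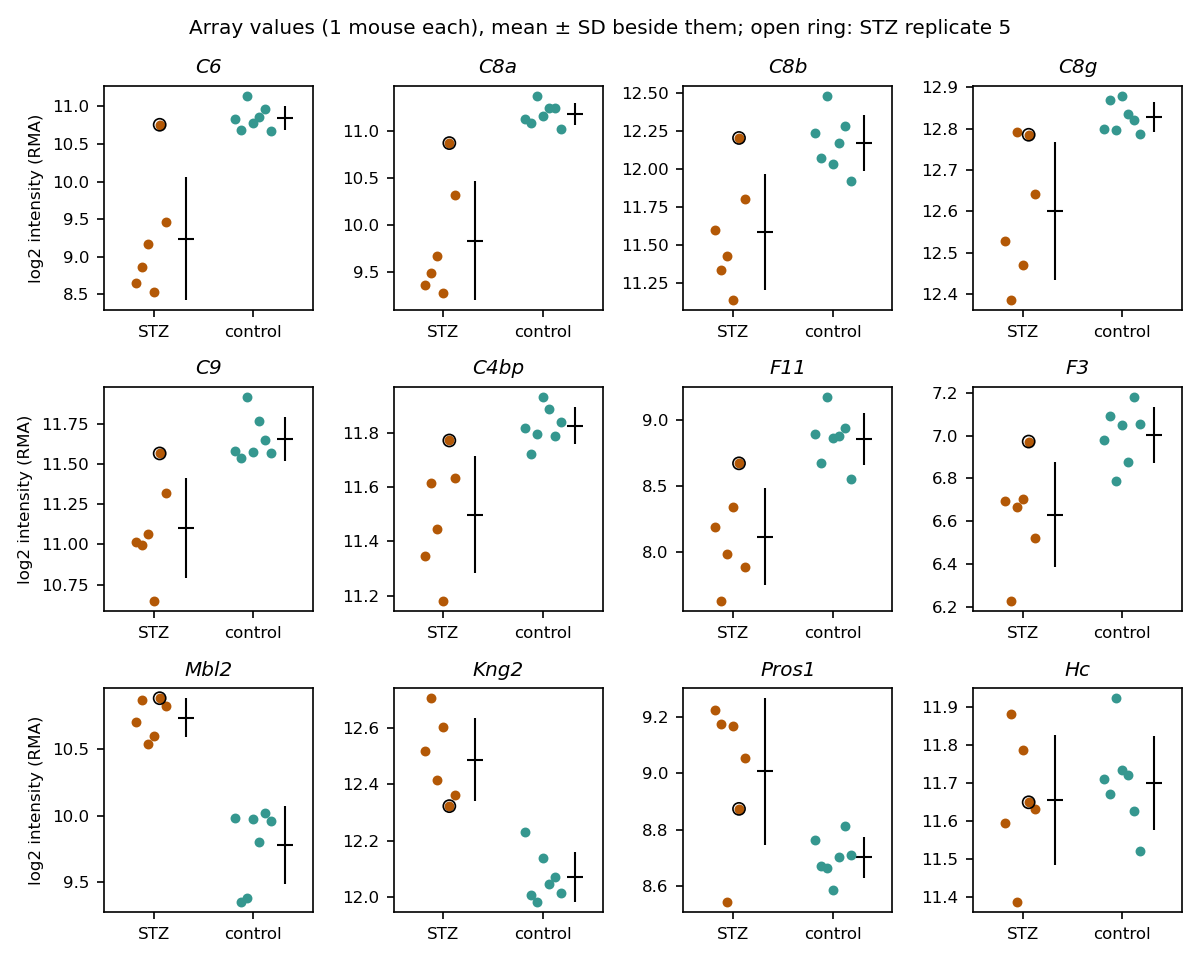
Log2 intensity (RMA, vertical axis, scaled separately for each gene) in the 6 STZ and 7 control livers for the 11 genes that passed and for Hc, with mean ± SD beside the points. The open ring is STZ replicate 5, which was the highest STZ liver in 7 of the 8 genes that fell.

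The STZ livers were not alike in these genes. The SD of C6 was 0.82 in STZ and 0.16 in control livers, and that of C8a 0.63 in STZ and 0.12 in control livers. For C6 and C8a the 6 STZ livers stood in the same order, from replicate 4, the lowest, through replicates 1, 2, 3 and 6 to replicate 5, the highest. C8b and C9 also had replicate 4 lowest and replicates 6 and 5 highest. In STZ replicate 5, C6 was 0.09, C8a 0.31 and C9 0.09 below the control mean (differences of -0.09, -0.31 and -0.09), and C8b was 0.03 above it. In STZ replicate 6 the same differences were -1.38, -0.86, -0.34 and -0.37 for C6, C8a, C9 and C8b.

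Over the 8 genes that fell, STZ replicate 5 was the STZ liver closest to the controls in 7, and replicate 3 in C8g. How often replicate 5 was closest over all genes called lower was not counted. The median of the 8 differences of replicate 5 from the control means was -0.07, against -0.42 to -0.83 in the other STZ livers. The same liver stood apart in Hsd3b5, a male-specific hydroxysteroid dehydrogenase of mouse liver. Hsd3b5 was 10.31 there, against 4.71 to 5.03 in the other 5 STZ livers and 11.14 to 12.13 in control livers. Mouse serum is known to hold less terminal complement in females than in males. The part of Hsd3b5, or of other sex-biased genes, in the complement differences was not tested. Without STZ replicate 5 the differences were -1.91 for C6, -1.56 for C8a, -0.71 for C8b and -0.65 for C9. They are larger because the liver nearest the controls was left out. Without this liver 10.9% of all genes passed in limma, against 9.12% with all arrays, so its effect was not confined to the set.

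The labels number the STZ mice 29, 30, 31, 32, 40 and 42. In 5 of the 8 genes that fell (C6, C8a, C8b, C9 and C4bp) the mice numbered 40 and 42, replicates 5 and 6, lay above all of the mice numbered 29 to 32. The share of all called genes that split in this way was not computed. The labels do not say what the numbers stand for. With replicates 1 to 4 alone against all controls, C6 was -2.05, C8a -1.73, C8b -0.80 and C9 -0.72. Replicates 5 and 6, left out here, were the STZ livers nearest the controls in these genes, so larger differences follow from the choice. No p is given for that reason.

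**Figure D3:**
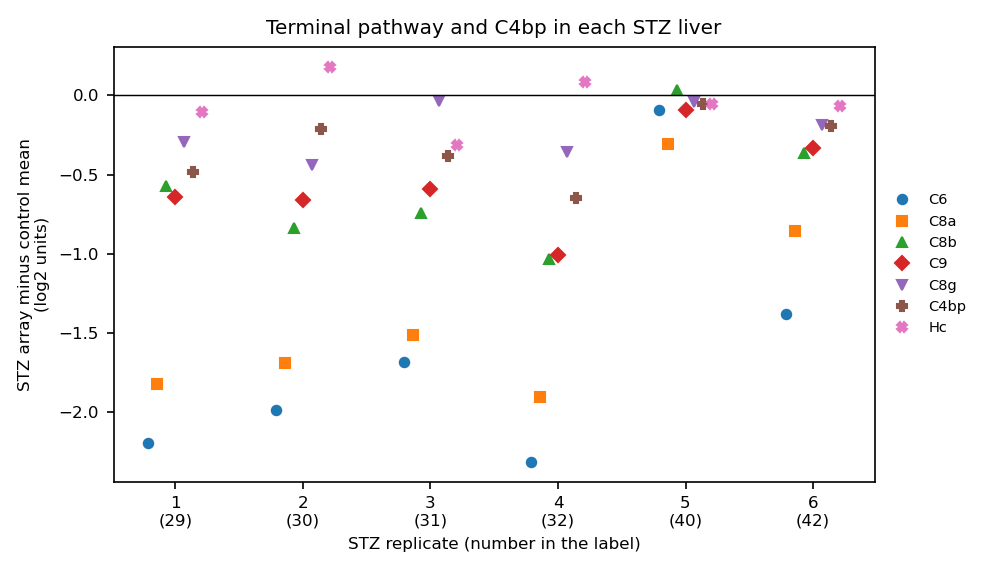
Difference of each STZ liver from the mean of the 7 controls (log2 units, vertical axis) for the 5 terminal-pathway genes that fell, C4bp and Hc, by STZ replicate with its label number in brackets. C6 and C8a lie between -2.31 and -1.51 in replicates 1 to 4 and at -0.09 and -0.31 in replicate 5, while Hc stays between -0.31 and 0.18 in all 6.

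Among the recognition and activation components of complement, Mbl2 moved up. Mbl2 encodes mannose-binding lectin C, which recognises sugars on microbes and starts the lectin pathway. It ranged from 10.54 to 10.89 in STZ livers (median 10.77) and from 9.35 to 10.02 in control livers (median 9.96). All 6 STZ livers lay above all 7 controls, which held for 2.3% of all genes. The difference was 0.96 ± 0.12, or 1.94-fold, with an adjusted p of 7.79e-05 in limma. Mbl1, the other mannose-binding lectin gene, was -0.25 ± 0.15 and did not pass (adjusted p = 0.403 in limma). It ranged from 10.05 to 10.96 in STZ livers and from 10.39 to 10.99 in control livers, with 3 of 6 STZ livers below all controls.

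The MASP protease genes Masp1 (-0.08 ± 0.06) and Masp2 (-0.09 ± 0.05), C2 (0.16 ± 0.08) and C4b did not pass. C4b, whose protein forms the C3 convertase of both pathways with C2, ranged from 11.17 to 11.61 in STZ livers (median 11.44) and from 11.42 to 11.66 in control livers (median 11.58). The groups overlapped, with 3 of 6 STZ livers below all controls, and the difference was -0.14 ± 0.07 (adjusted p = 0.254 in limma). Its probes may also bind transcripts of the close paralog C4a. In the alternative pathway neither of the 2 measured genes passed in limma, where 1 had an unadjusted p under 0.05, and the exact rank-sum test also called 0. Cfb, the convertase protease, was 0.02 ± 0.06 (adjusted p = 0.878). Cfp, the gene of properdin, which stabilises that convertase, was 0.27 ± 0.12 (adjusted p = 0.224 in limma).

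Cfp spread from 8.65 to 9.56 in STZ livers (median 9.26) and from 8.76 to 9.30 in control livers (median 8.91). Without STZ replicate 3, the lowest of the STZ livers, the Cfp difference was 0.38 and passed in limma (adjusted p = 0.0237). Properdin is known to come mainly from myeloid cells. Of 12 Kupffer cell and macrophage markers, 6 rose in STZ livers and none fell, with mean levels over the list of 8.93 to 9.57 in STZ and 8.78 to 9.23 in control livers. Over all genes 5.09% rose and 4.04% fell in limma. The exact rank-sum test called 0 of the 12. The defining markers Adgre1, Clec4f and Cd5l were 0.40 ± 0.14, 0.31 ± 0.08 and 0.62 ± 0.15, and Adgre1 did not pass. Of 9 neutrophil and monocyte markers 0 passed in limma and in the rank-sum test, with 3 at an unadjusted p under 0.05. The part of these cells in the Cfp values was not tested, and in a whole-liver sample more cells of a type cannot be told apart from more RNA per cell.

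Of the 2 soluble regulators, 1 fell. C4bp encodes the C4b-binding protein, a cofactor for the breakdown of C4b. It ranged from 11.18 to 11.77 in STZ livers (median 11.53), against 11.72 to 11.93 in control livers (median 11.82). In 5 of 6 STZ livers it was below all controls, with a difference of -0.33 ± 0.08 (adjusted p = 0.0158 in limma). Cfi, factor I, the protease that this cofactor serves, was 0.14 ± 0.07 and did not pass (adjusted p = 0.278 in limma).

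In coagulation the contact system held the largest differences of both directions. F11 encodes factor XI, which links contact activation to factor IX. It ranged from 7.63 to 8.67 in STZ livers (median 8.09) and from 8.55 to 9.17 in control livers (median 8.88). In 5 of 6 STZ livers F11 was below all controls, and the highest, STZ replicate 5, lay inside their range. Its difference was -0.73 ± 0.14, or 60.2% of the control level (adjusted p = 0.00237 in limma). Among the STZ livers the order for F11 was not that of C6: replicates 2 and 6 were the lowest.

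Kng2 is one of the mouse kininogen genes, whose products are cofactors of contact activation and precursors of bradykinin. It ranged from 12.32 to 12.70 in STZ livers (median 12.47), against 11.98 to 12.23 in control livers (median 12.05). The groups did not overlap, which held in the upward direction for 2.3% of all genes. Kng2 was higher by 0.42 ± 0.07, or 1.34-fold (adjusted p = 0.000752 in limma). Kng1, next to Kng2 on chromosome 16, was 0.09 ± 0.05 and did not pass (adjusted p = 0.255 in limma), though all 6 STZ livers, at 13.23 to 13.42, lay above all controls, at 13.15 to 13.22. The exact rank-sum test called Kng1. It was singled out after its values were seen. The kininogen genes are close paralogs, so probes of each may bind transcripts of the other, and Kng1 lay near the upper end of the scale, where arrays flatten. F12, the factor XII gene, was 0.07 ± 0.05 and did not pass.

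F3 encodes tissue factor, the membrane protein that starts coagulation with factor VII. It ranged from 6.23 to 6.97 in STZ livers (median 6.68) and from 6.79 to 7.18 in control livers (median 7.05). The difference was -0.37 ± 0.10 (adjusted p = 0.0213 in limma), with 5 of 6 STZ livers below all controls. Without STZ replicate 6 the adjusted p was 0.0509 in limma, and in the exact rank-sum test it was 0.0629. F3 was not bright: its means, 6.63 in STZ and 7.00 in control livers, lay near the mean of 6.65 of the median gene.

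Among the anticoagulants, Pros1 encodes protein S, the cofactor of activated protein C. It ranged from 8.54 to 9.22 in STZ livers (median 9.11) and from 8.59 to 8.81 in control livers (median 8.70), with 5 of 6 STZ livers above all controls and replicate 3 below them. The difference of 0.30 ± 0.09 passed narrowly (adjusted p = 0.0485 in limma). The call was lost in 11 of the 13 fits without 1 array, all but those without STZ replicate 3 or STZ replicate 5. Proc, the protein C gene, was -0.12 ± 0.07, and Tfpi and Thbd, tissue factor pathway inhibitor and thrombomodulin, were -0.04 ± 0.08 and 0.14 ± 0.09; none of the 3 passed in limma (adjusted p = 0.325, 0.868 and 0.413).

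None of the clotting proteases made with vitamin K, nor the fibrin genes, passed. The vitamin K-dependent procoagulant proteases F2 (prothrombin), F7, F9 and F10 lay between -0.05 and 0.08, and 0 of 4 passed in limma or in the rank-sum test, with 0 at an unadjusted p under 0.05. F2, for instance, ranged from 12.40 to 12.56 in STZ livers and from 12.49 to 12.61 in control livers. The clot genes Fga, Fgb and Fgg, which encode the fibrinogen chains and lie side by side on chromosome 3, and F13b, the carrier subunit of factor XIII, lay between 0.06 and 0.14. Here too limma and the rank-sum test called 0 of 4, and 0 had an unadjusted p under 0.05. Fgb and Fgg, with control means of 12.96 and 13.07, lay near the upper end of the scale, where arrays flatten. Fga had 2 probe sets, with differences of 0.14 and 0.25.

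Fibrinogen chains are known as positive acute phase proteins. Of 21 acute phase genes, 6 rose and 2 fell, Saa4 (-0.43 ± 0.11) and Ttr (-0.18 ± 0.05). Over all genes 5.09% rose and 4.04% fell. Positive reactants are mixed in this list with negative ones such as Alb and Ttr, so the counts and mean mix directions. The list mean was 11.18 to 12.42 in STZ livers, above all controls at 10.78 to 10.98. The STZ median of that mean was 11.33, well below the highest liver at 12.42, and the median difference of the 21 genes was 0.21. Lcn2 (3.21 ± 0.40), Orm2 (2.90 ± 0.25) and Orm3 (2.73 ± 0.34) differed most, while Saa1 reached 10.71 in the highest STZ liver against an STZ median of 5.71 and did not pass. The part of the acute phase response in the differences of complement and coagulation genes was not tested. Plg, the plasminogen gene, was -0.03 ± 0.05 (adjusted p = 0.835 in limma). F5, the gene of the cofactor of factor X, ranged from 11.01 to 11.23 in STZ livers (median 11.11) and from 10.87 to 11.09 in control livers (median 10.99). In 3 of 6 STZ livers F5 was above all controls, and the difference was 0.13 ± 0.06 (adjusted p = 0.193 in limma), the smallest adjusted p among the members that did not pass.

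F8 and Vwf, the genes of factor VIII and its carrier von Willebrand factor, are known to be expressed in endothelial cells. F8 was -0.08 ± 0.05 (adjusted p = 0.414 in limma), with 4 of 6 STZ livers below all controls and 1 above them. Vwf ranged from 7.13 to 7.34 in STZ livers (median 7.18) and from 6.90 to 7.15 in control livers (median 7.11). Its difference was 0.12 ± 0.06 (adjusted p = 0.220 in limma). Of 10 endothelial markers, 2 were higher in STZ livers, Lyve1 and Eng, with list means of 8.76 to 8.93 in STZ and 8.69 to 8.83 in control livers. Over all genes 5.09% were higher in limma. The exact rank-sum test called 0 of the 10. The other 8 did not pass: Pecam1 and Cdh5, which define endothelium, were 0.16 and 0.17, and Stab2, Kdr, Emcn, Tek, Clec4g and Tie1 were 0.09, 0.09, 0.03, 0.03, -0.04 and -0.04. The part of these cells in the Vwf values was not tested.

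Further genes of both systems were examined from lists that did not belong to the set. Of 29 other complement genes, 5 (17.2%) were higher and 2 (6.9%) lower, with a median difference of 0.05. The shares over all genes were 5.09% and 4.04%. In the exact rank-sum test 1 of the 29 was called, against 5.46% of all genes. The higher genes were C1qc (0.49 ± 0.13) and C1qa (0.35 ± 0.09), chains of the recognition protein C1q, the Kupffer cell complement receptor Vsig4 (0.41 ± 0.11), and the anaphylatoxin receptors C3ar1 (0.41 ± 0.11) and C5ar1 (0.27 ± 0.07). C1qa, C1qc and Vsig4 are also among the macrophage markers given above. Lower were Cd59b (-0.94 ± 0.19), whose product blocks the attack complex on cell membranes, and C1s1 (-0.36 ± 0.11), a protease of the C1 complex.

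Cd59b ranged from 6.39 to 7.84 in STZ livers (median 7.19), against 7.87 to 8.24 in control livers (median 8.10). Its adjusted p was 0.00506 in limma. The groups did not overlap, which held in the downward direction for 1.56% of all genes. The paralog Cd59a was -0.12 ± 0.07 and did not pass. Probes of each of these paralogs may bind transcripts of the other. The fluid-phase regulators Serping1, Cfhr3, Clu and Vtn lay between -0.07 and 0.13, and 0 of 4 passed in limma and in the rank-sum test, with 1 at an unadjusted p under 0.05.

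Of 27 other haemostasis genes, 2 (7.41%) were higher and 4 (14.8%) lower, against 5.09% and 4.04% of all genes. Their median difference was 0.06, and the exact rank-sum test called 5 of the 27. Hrg, a histidine-rich plasma glycoprotein that binds plasminogen, was 0.34 ± 0.06, and Gas6, a vitamin K-dependent ligand of TAM receptors, was 0.44 ± 0.09. Both lay above all controls in 6 of 6 STZ livers, which held for 2.3% of all genes. Lower were Hgfac (-0.62 ± 0.09), a protease related to factor XII, the thrombin receptor F2r (-0.62 ± 0.16), Ggcx (-0.39 ± 0.11), the carboxylase that vitamin K-dependent factors need, and Lman1 (-0.21 ± 0.05), the cargo receptor for factors V and VIII. The serpins Serpinc1 (antithrombin), Serpind1, Serpina5, Serpina10 and Serpinf2 lay between -0.04 and 0.20, and 0 of 5 passed in limma and in the rank-sum test, with 2 at an unadjusted p under 0.05.

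**Figure D4:**
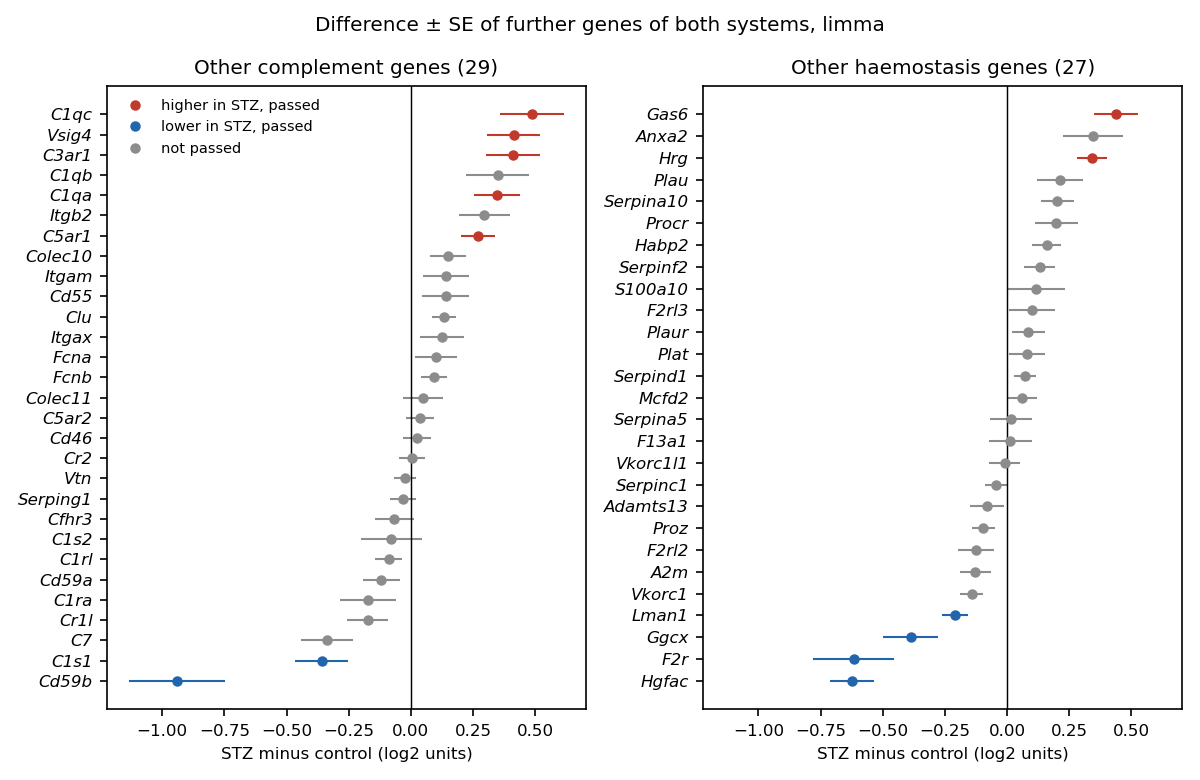
Difference in liver level (STZ minus control, log2 units, horizontal axis) of 29 further complement genes and 27 further haemostasis genes, with the standard error of the limma fit as bars. Cd59b, at -0.94, lies furthest from 0. In all, 7 of the 29 complement and 6 of the 27 haemostasis genes passed, against 9.12% of all genes.

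Of 11 measured genes of hepatocyte transcription control and cytokine signalling, 3 were higher and 3 lower, against 5.09% and 4.04% of all genes. Stat3 (0.64 ± 0.11), which carries the interleukin 6 signal, its feedback inhibitor Socs3 (0.46 ± 0.10) and the estrogen receptor gene Esr1 (0.62 ± 0.10) rose. Cebpa (-0.58 ± 0.11), the bile acid receptor gene Nr1h4 (-0.39 ± 0.09) and the glucocorticoid receptor gene Nr3c1 (-0.23 ± 0.06) fell. Hnf4a, a main regulator of hepatocyte genes, was 0.15 ± 0.06 and did not pass (adjusted p = 0.138 in limma). The mean level of 7 hepatocyte markers was 13.19 to 13.26 in STZ and also 13.19 to 13.26 in control livers. Such levels lie near the upper end of the scale, where arrays flatten. Of the 7 hepatocyte markers, Cps1 was higher and Apoa1 and Ttr lower. Of the remaining marker lists, 3 of 9 stellate cell genes were higher and 1 lower, 0 of 4 cholangiocyte genes passed in limma or in the rank-sum test (1 at an unadjusted p under 0.05), 1 of 5 platelet genes was lower, and of 6 adipocyte genes 1 was higher and 1 lower.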

How the data were processed

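Liver RNA of 6 STZ and 7 control mice was measured on 1 Affymetrix array each. Each deposited table holds 35556 probe sets on a log2 scale. The submitters' processing notes name RMA and Affymetrix Expression Console 1.2. Because RMA scales the arrays to a common distribution, a shift in the total RNA of a cell is lost. No source used here names the annotation release or the genome build. The arrays carry no read depth; their number limits the precision.

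Probe sets with exactly 1 gene symbol (21789) gave 19938 genes, with the probe set of the highest mean kept per gene. Groups and replicate numbers come from the sample titles. STZ was compared with control in limma 3.58.1 (R 4.3.3; lmFit, eBayes, 2-sided, no covariate, no filter), with the Benjamini-Hochberg adjustment over all 19938 genes and a threshold of 0.05. Every adjusted p without another name is from this fit. The fit was tested on simulated data in which each gene had the same spread in both groups. That test does not cover genes such as C6, with an SD of 0.82 in STZ and 0.16 in control livers. P-values measure the spread between mice.

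The members, the gene lists and the rules were chosen with earlier results of these data known. Named members passed, differed by at least 0.3, or were the 4 nearest the threshold. Kng1, Mbl1 and the other members that did not pass are given so that each is accounted for. The numbers of the groups share 1 to 6 in the titles but belong to different mice. Same-numbered arrays had correlations of their deviations between -0.09 and 0.19 over genes, so the numbers were not taken as pairs. Alternatives covered the variance model, a filter on dim genes, probe sets, scaling, array weights, a replicate block, the exact rank-sum test, each array left out, and STZ replicates 1 to 4 alone.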

Additional observations from a re-analysis of the deposited data

Results flagged for a closer look

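Among the 15 named members, 1 of 30 groups held an array far from the others by Dixon's criterion, and chance flags about 1 group in 20. Vwf was 7.33 in STZ replicate 1, while the next highest STZ liver was at 7.18. The gap was 0.748 of the range of the 6 STZ livers.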

How the results depend on the processing

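Each of the 15 named members was recomputed under 22 alternatives, 13 of them leaving out 1 array, and none of the 15 changed direction. Of the 11 members that passed, Mbl2, C8a, C9, F11 and Kng2 passed in all 22, and C6, C8b and C4bp in all 13 fits without 1 array. C6 (adjusted p = 0.0629), C8b (0.122), F3 (0.0629) and Pros1 (0.262) did not pass in the exact rank-sum test. C8g and Pros1 had adjusted p values of 0.0135 to 0.0988 and 0.0012 to 0.262 over the alternatives. Leaving out 1 array, the count of complement genes was 1 to 2 higher (2 without STZ replicate 3, when Cfp passed) and 5 to 6 lower, and that of coagulation genes 1 to 2 higher and 1 to 2 lower. The medians were then -0.14 to -0.09 for complement and 0.05 to 0.08 for coagulation. Coagulation genes called higher were 1, not 2, with quantile normalization, array weights, the replicate block and STZ replicates 1 to 4 alone. Coagulation genes called lower were 1, not 2, with the replicate block and in the rank-sum test.

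With the replicate block, which the data do not bear out (1 of 6 STZ arrays correlated best with the control of its own number), complement had 1 gene higher and 4 lower. C8g (adjusted p = 0.0988), C4bp (0.0569), F3 (0.0862) and Pros1 (0.0743) lost their calls there, and 6.3% of all genes passed. Genes near or below the median gene in brightness, such as F3, C7 and Thbd, lie where arrays compress differences.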
